A study of Mus musculus with 2 samples.

Results

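The 10 genes described here encode lysosomal proteases and their best-known secreted inhibitor: the cysteine cathepsins B, L, S, H, C and Z (Ctsb, Ctsl, Ctss, Ctsh, Ctsc and Ctsz), the asparaginyl endopeptidase legumain (Lgmn), the aspartic protease cathepsin D (Ctsd), the serine carboxypeptidase cathepsin A (Ctsa) and cystatin C (Cst3). They were taken by symbol, and all 10 were found among the 32285 genes of both deposited single-cell matrices. The study's 2 samples are kidneys of the B6 genotype, labelled AAN CKD and week 2, where AAN is aristolochic acid nephropathy, chronic kidney damage from a plant toxin. The single-cell sample is described here, and the Visium section was not analysed here. Every cell compared below therefore shares the B6 background, the toxin model and the CD45 sort, CD45 being a surface protein of nearly all leukocytes, and no healthy kidney enters any comparison.

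The single-cell sample held 2 hashed samples, marked by antibody-borne barcodes and captured together in 1 library, with 3315 barcodes in the first and 3700 in the second and no barcode in common. The labels do not say that these are separate animals. The title of the sample names a single mouse and both week 1 and week 2, against the label of week 2. Whether the hashed samples differ in week cannot be told, so they are not known to be replicates. A protocol mentions human kidneys and a label mesenchymal stem cells, whereas the organism label and every gene identifier are mouse and the cells below carry leukocyte markers. After filtering, 3086 and 3466 cells remained, with a median of 5665.5 and 6566.5 unique molecular identifiers (UMIs), each marking 1 captured RNA molecule. With 1 labelled sample no test across animals was possible. Paired values are those of hashed sample 1 and 2 in that order, and intervals are exact 95% intervals that cover counting error only.

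Lysosomal proteases are made as inactive precursors, sorted to endosomes and lysosomes, and activated there by acid pH and by each other. In antigen-presenting cells they degrade ingested proteins to peptides and trim the invariant chain, the chaperone that blocks the peptide groove of MHC class II, with cathepsin S known for the last cut in dendritic cells and B cells. Cystatin C binds cysteine cathepsins tightly but not the aspartic protease cathepsin D, and its level in blood is used as a marker of kidney filtration. In macrophages, which take up dead cells and debris, the same enzymes carry out bulk protein degradation.

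Cells were placed in classes by marker genes that exclude all 10 members, and each name means "like" that cell type. Resident macrophage-like cells had at least 48 UMIs of C1qa, C1qb and C1qc per 10000 and numbered 3005 (1202 and 1803). Within them 5 states were gated on Lyve1 Cd163, Pf4 Ccl7, Ccl3 Ccl4, Fcgr4 or Cxcl9 Cxcl10 markers. Outside them lay 484 myeloid cells with Arg1, Mmp12 and Lpl and 291 myeloid cells with Ear2 and Mgl2. There were 73 patrolling and 159 classical monocytes, 105 type 1, 87 migratory and 239 type 2 dendritic cells, and 391 CD8 and 417 CD4 T cells. The 8 general macrophage markers summed to 19290.4 and 19224 CPM (UMIs per 1000000 UMIs of the class) in the resident macrophages, and to at most 1071 and 1339 CPM in any dendritic cell, monocyte or T cell class. These markers include C1qa, C1qb and C1qc, of which the dendritic cells, monocytes and T cells had to have under 24 UMIs per 10000. The contrast is thus set in part by the gates and is no separate evidence for the class names. The 7 classical monocyte markers summed to 4476 and 3235 CPM in the patrolling monocytes, against 5922 and 3958 CPM in the classical monocytes, so that the patrolling class also carried classical markers. Apoe and Fcgr4, listed as macrophage state markers, summed to 15178 and 10234 CPM in the classical and 6656 and 6630 CPM in the patrolling monocytes. The same sum was 36261 and 25174 CPM in resident macrophages and 493 and 708 CPM in CD4 T cells. Both monocyte classes thus also carried macrophage state markers.

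A member was counted as higher or lower in one class than in another when its CPM differed at least 1.5-fold in the same direction in both hashed samples, with 10 CPM added to each value, and at least 50 CPM in 1 of the classes in each hashed sample. The same rule was applied to every gene, and the percentage of all measured genes that it counted is given beside the members' count. Because each value counts 3' ends, levels of different genes are numbers of captured molecules and need no correction for transcript length.

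The 10 genes are not clustered in the genome, although 3 of them lie on chromosome 2. In the GENCODE M21 annotation of GRCm38 these are Cst3 at chr2:148871722-148875692 on the minus strand, Ctsa at chr2:164832873-164841032 on the plus strand and Ctsz at chr2:174427493-174439039 on the minus strand. Chromosome 7 holds Ctsc at chr7:88278085-88310888 (plus) and Ctsd at chr7:142375911-142388038 (minus). The remaining members are Ctsb at chr14:63122462-63145923 (plus), Ctsl at chr13:64359337-64370890 (minus), Ctss at chr3:95526786-95556403 (plus), Ctsh at chr9:90054152-90076089 (plus) and Lgmn at chr12:102394084-102439813 (minus). All are protein-coding.

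The windows of 250 bases before the start sites of 8 members, from RefSeq on GRCm38.p6 and with 2 start sites each for Ctsa and Lgmn, were read on both strands for 4 motifs chosen after the values below were seen. CACGTG, the core of the E-box bound by TFEB and related lysosome gene regulators, was in at least 1 window of 4 of the 8 members, Ctsa, Ctsd, Ctsl and Lgmn, and of 6.86% of all 27025 genes. Only 1 of the 2 windows held it for Ctsa and for Lgmn. For both genes this was the window inside the GENCODE span given above, not the one at its 5' end. The longer TCACGTGA, which contains it, was in Ctsa and Ctsd and in 0.907% of all genes. An interferon-stimulated response core, GAAA and again GAAA with 2 bases of any kind between, was in Ctss and in 3.46% of all genes. GAGGAAGT, a core bound by the myeloid factor PU.1, was in Ctsc and in 2.79% of all genes, and the Cst3 and Ctsz windows held none of the 4. The 60 bases around the motif nearest the start site are shown for Ctsd, Ctsl and Lgmn, which were counted as higher in macrophages with little MHC class II, for Ctsa, and for Ctss, which was not counted. Capitals mark the motif, and each stretch is written 5' to 3' on the strand of its gene.
Ctsd: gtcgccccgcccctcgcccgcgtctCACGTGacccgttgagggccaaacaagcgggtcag
Ctsl: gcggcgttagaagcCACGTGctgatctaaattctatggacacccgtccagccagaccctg
Lgmn: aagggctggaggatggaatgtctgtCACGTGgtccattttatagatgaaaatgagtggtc
Ctsa: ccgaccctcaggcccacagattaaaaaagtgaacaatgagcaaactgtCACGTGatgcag
Ctss: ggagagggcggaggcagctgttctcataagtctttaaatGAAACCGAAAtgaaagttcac
These stretches lie at chr7:142387891-142387950 (minus), chr13:64370711-64370770 (minus), chr12:102439107-102439166 (minus), chr2:164833713-164833772 (plus) and chr3:95526726-95526785 (plus), in the same order. The Ctsd, Ctsl, Lgmn and Ctsa stretches lie inside the GENCODE spans of their genes, downstream of the 5' end. They precede a RefSeq start site that lies further inside. The Ctss stretch lies before its gene. A match says that the letters are there and nothing of whether a factor binds.

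Across the 16 classes and states the 10 genes were most abundant in myeloid cells and least abundant in T cells or type 1 dendritic cells, and they differed in which myeloid class stood highest. By the mean of both hashed samples, Ctsa, Ctsb, Ctsc, Ctsd, Ctsl and Lgmn were highest in Lyve1 Cd163 macrophages and Ctsh and Ctss in Fcgr4 macrophages. Ctsz was highest in Arg1 Mmp12 Lpl myeloid cells and Cst3 in type 1 dendritic cells. For Ctsc, Ctsd, Ctsh and Ctss the highest class overlapped the next. Ctsd, for one, had 1056 and 1206 CPM in Lyve1 Cd163 macrophages and 1295 and 882 CPM in Arg1 Mmp12 Lpl cells. The distance from the highest to the lowest class was widest for Cst3, 114-fold between type 1 dendritic cells and the T cells outside the CD4 and CD8 gates. It was 72.6-fold for Lgmn, 69.6-fold for Ctsd and 14.2-fold for Ctsa, the narrowest of the 10. Many neighbours in these orders did not differ beyond the gap between the hashed samples: of the 15 neighbouring pairs per gene, between 7 (Ctsb, Ctsc and Lgmn) and 12 (Ctsh) overlapped. In Ctsd, for example, CD8 T cells at 298 and 326 CPM stood above type 2 dendritic cells at 92.9 and 154 CPM, whereas CD4 T cells at 225 and 214 CPM and Ear2 Mgl2 myeloid cells at 226 and 205 CPM could not be ordered. All 10 together made up 2.84 and 3.11% of all UMIs in type 1 dendritic cells, 2.74 and 2.40% in migratory dendritic cells and 1.32 and 1.28% in resident macrophages. Between the hashed samples a member's level, with 10 CPM added, was past 1.5-fold in 16 of 200 cases. Beyond the 16 classes and states, these cases take in tubule droplets, all resident macrophages and their MHC class II-low and class II-high parts. Some cells therefore enter more than once.

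**Figure D1:**
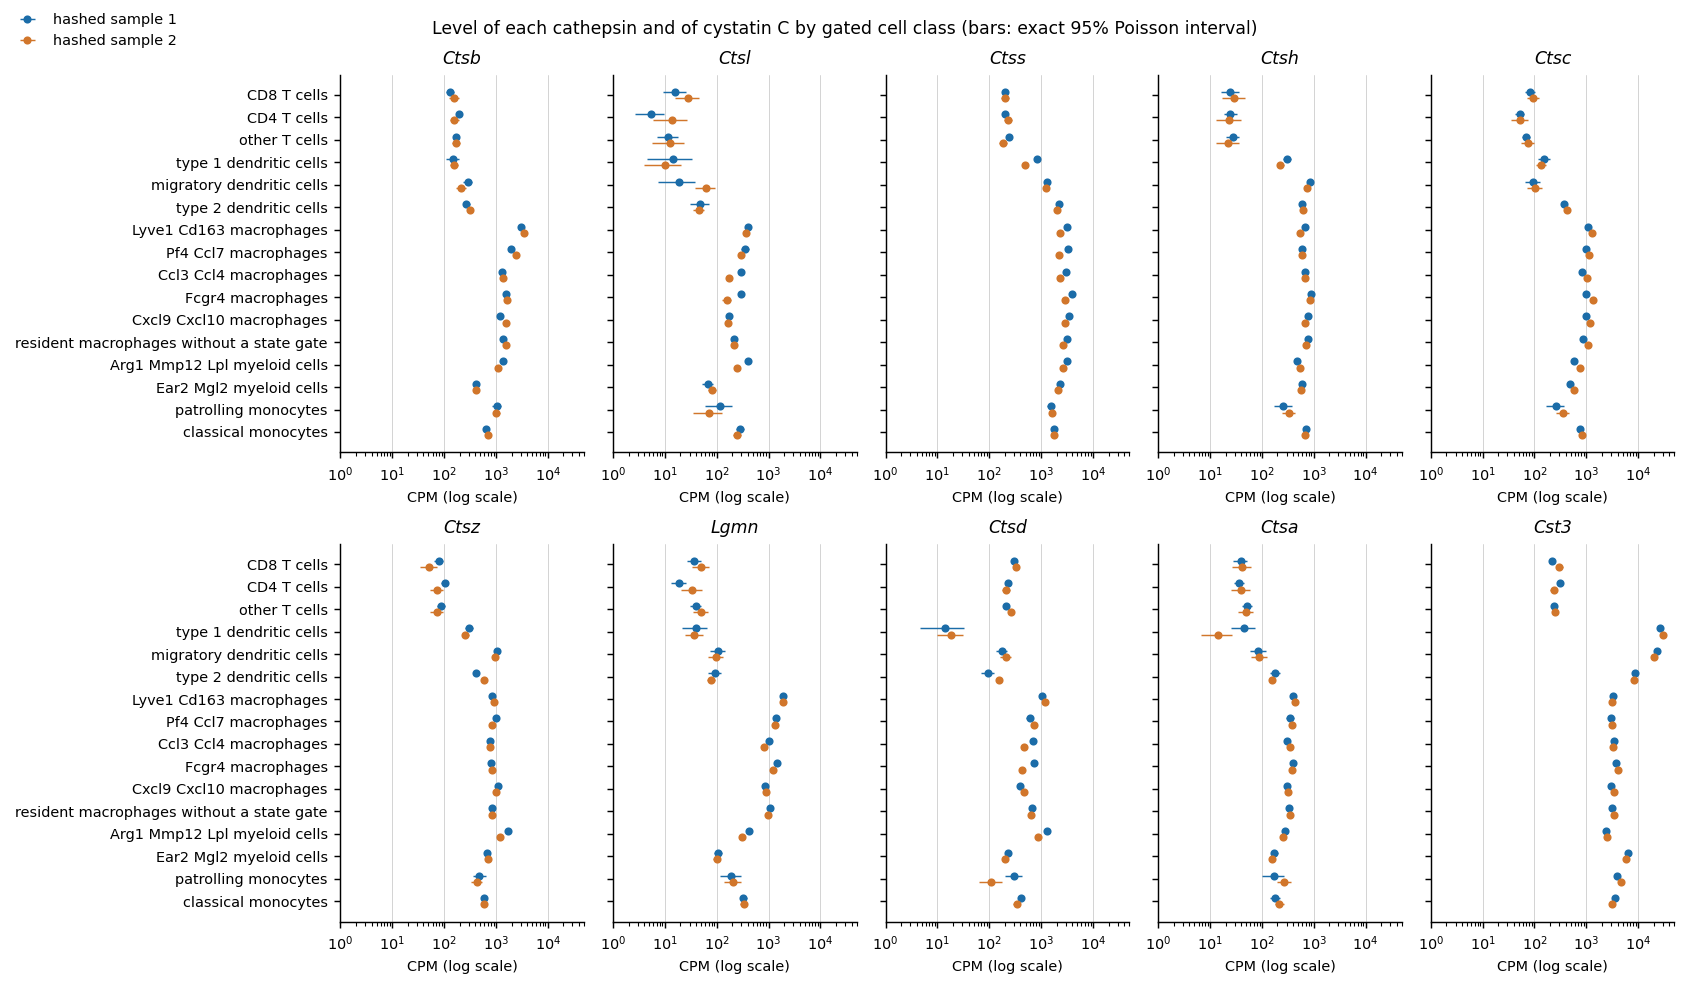
Level of each member (CPM, log axis) in the 16 cell classes and macrophage states, 1 point per hashed sample with its exact 95% Poisson interval. Cst3 is highest in type 1 dendritic cells (26508 and 29714 CPM), where Ctsd is lowest (14.1 and 18.4 CPM).

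Resident macrophages with little MHC class II had more Ctsd, Ctsb, Ctsl and Lgmn per UMI than those with much of it, which addresses the series' stated interest in macrophages lacking MHC II. These are the aspartic protease, a pair of broad cysteine endopeptidases and the asparaginyl endopeptidase. The cells were split at 40 UMIs per 10000 of H2-Ab1, H2-Aa and H2-Eb1 summed, into 847 class II-low macrophages (191 and 656) with a median of 8.58 and 2158 class II-high macrophages (1011 and 1147) with a median of 231. Within 1.5-fold of the split lay 7.29% of the cells. The rule counted 4 of the 10 members as higher and 0 as lower, against 3.52% higher and 2.49% lower among 2727 measured genes. The members' median log2 ratio was 0.16 and 0.19, against 0.13 and 0.12 over all measured genes.

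Ctsd had 1219.6 and 975 CPM in class II-low macrophages, against 572 and 479 CPM in class II-high macrophages. That is 2.13-fold (95% interval 2.01 to 2.26) and 2.03-fold (95% interval 1.95 to 2.12) higher, and both MHC II-low values lie above both MHC II-high values. Ctsb had 2735 and 2725 CPM in class II-low macrophages, against 1346 and 1368 CPM in class II-high macrophages, or 2.03-fold (95% interval 1.95 to 2.11) and 1.99-fold (95% interval 1.94 to 2.04). In both classes the hashed samples lay close together for this gene. Ctsl, which is far less abundant, had 432 and 334 CPM in class II-low macrophages, against 221 and 171 CPM in class II-high macrophages, with log2 ratios of 0.94 and 0.93. Lgmn, which also activates other cathepsins by cutting after asparagine, had 1686 and 1573 CPM in class II-low macrophages, against 1092 and 847 CPM in class II-high macrophages. Its log2 ratios of 0.62 and 0.89 were the smallest of the 4, and in hashed sample 1 the fold was 1.54-fold (95% interval 1.47 to 1.62), near the limit of the rule. With TMM factors Lgmn was no longer counted (log2 0.48 and 0.75) and the other 3 were. Lgmn also lost its call with gates 2 times as high (0.51 and 0.77) and with Leiden clusters (0.49 and 0.50). With TMM factors the split of all genes was 62 higher and 87 lower, against 96 and 68 without.

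The other members were not counted, and their ratios ran from -0.41 to 0.27. Ctsh, an aminopeptidase, had 601 and 566 CPM in class II-low macrophages, against 802 and 743 CPM in class II-high macrophages. Ctss, the protease of the last invariant chain cut, had 3067 and 2259 CPM in class II-low macrophages, against 3360.2 and 2642 CPM in class II-high macrophages. For both genes the MHC II-low value was below the MHC II-high value within each hashed sample, and for Ctss the hashed samples differed by more than the classes did. The number of Ctss molecules per Ctsl molecule was accordingly 7.10 and 6.76 in class II-low macrophages and 15.2 and 15.5 in class II-high macrophages. Cst3, the inhibitor, had 3006 and 3222 CPM in class II-low macrophages, against 3275 and 3394 CPM in class II-high macrophages. Ctsc, the dipeptidyl peptidase that activates granule serine proteases, had 974 and 1193 CPM in class II-low macrophages, against 921 and 1109 CPM in class II-high macrophages. Ctsz, a carboxypeptidase, and Ctsa, which also protects lysosomal beta-galactosidase and neuraminidase, had log2 ratios between 0.04 and 0.27.

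Over 5 bins of the MHC class II level, Ctsd, Ctsl and Lgmn were lower at each step up in both hashed samples, and Ctsh was higher at each step. Ctsd had 1249 and 1014 CPM in cells under 10 MHC class II UMIs per 10000 and 377 and 349.7 CPM in cells of 300 or more. The middle bin, of 169 and 265 cells, lay between at 793 and 639.9 CPM. Ctsb had 2697 and 2889.7 CPM in the lowest bin, 2774 and 2447 CPM in the next and 1042 and 985 CPM in the highest, so that in hashed sample 1 the first step was not a fall. Lgmn had 1693 and 1683 CPM in the lowest bin and 911 and 615 CPM in the highest, and Ctsl 478 and 347 CPM and 159.7 and 129 CPM. Ctsh, Ctss and Cst3 were higher in the highest bin than in the lowest, Ctss and Cst3 without a steady order between. Ctsh had 555 and 531 CPM in the lowest bin and 917 and 878 CPM in the highest, and Ctss 2934 and 2172 CPM and 3803 and 2995 CPM. Cst3 had 2906 and 3133 CPM in the lowest bin and 3484 and 3805 CPM in the highest. Ctsz, Ctsa and Ctsc lay between 308 and 1146 CPM in these end bins. The bins are also graded in Ccr2, the chemokine receptor of monocyte-derived cells, at 142 and 309 CPM in the lowest bin and 734 and 1062 CPM in the highest, and the part of cell origin in the members' levels was not tested.

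**Figure D2:**
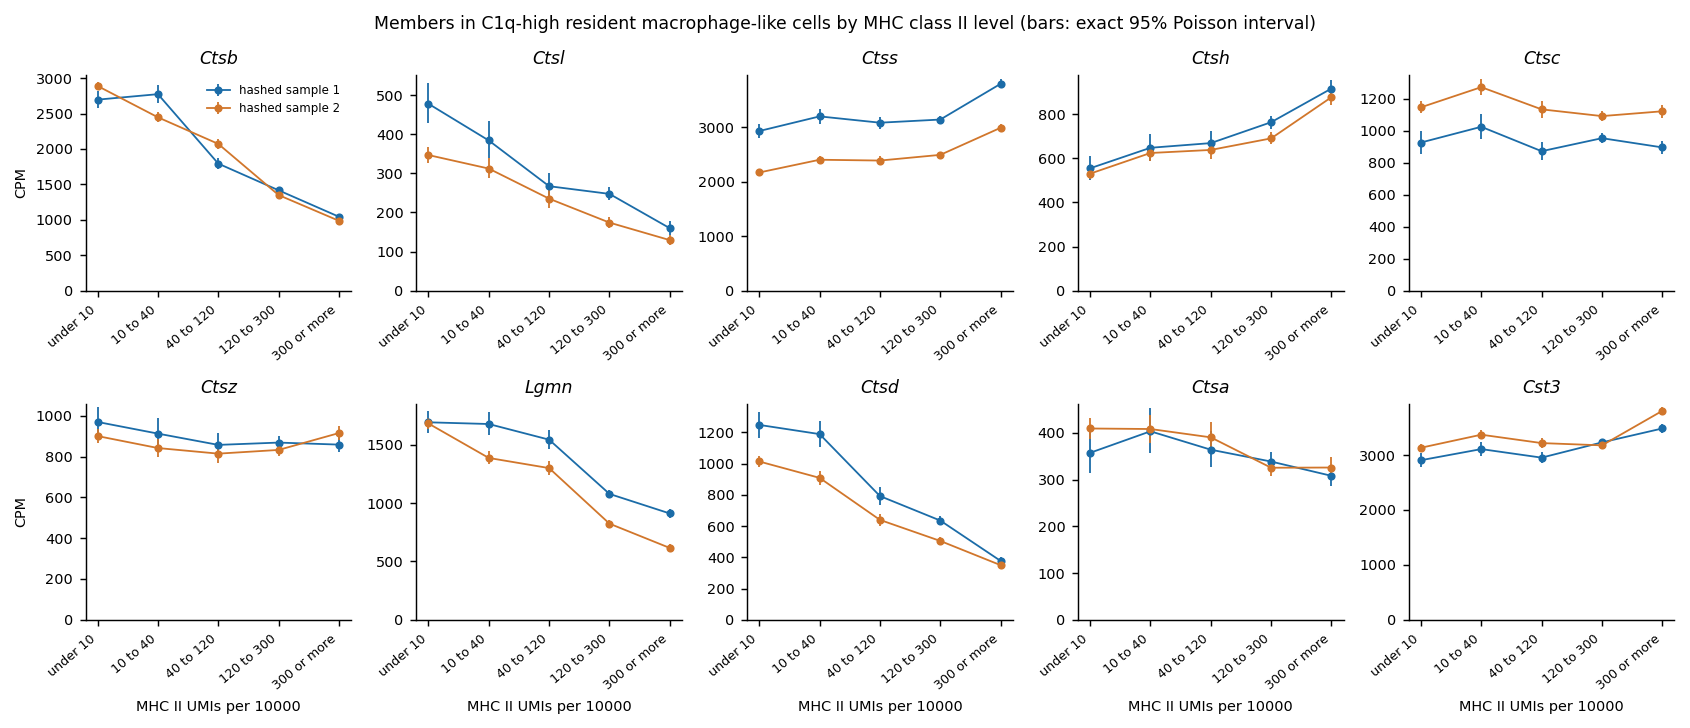
Level of each member (CPM) in resident macrophages binned by their MHC class II level (UMIs of H2-Ab1, H2-Aa and H2-Eb1 per 10000), 1 line per hashed sample with exact 95% Poisson intervals. Ctsb, Ctsd, Ctsl and Lgmn are lower in the highest bin than in the lowest bin in both hashed samples, and Ctsh, Ctss and Cst3 are higher.

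The same direction was present inside the macrophage states, with fewer members past the rule. Among the 5 gated states and the 1341 resident macrophages without a state gate, Ctsb, Ctsd and Lgmn were above 0 on the log2 scale in both hashed samples in 6 of 6, and Ctsl in 5 of 6. Ctsh was below 0 in both in 6 of 6 and Ctss in 5 of 6. The rule counted Ctsd in 3 of the 6, Ctsb and Ctsl in 2 each and Lgmn in 1. In the ungated macrophages Ctsd had log2 ratios of 0.80 and 1.01, Ctsb 0.75 and 0.98, Ctsl 0.65 and 0.97 and Lgmn 0.51 and 0.97. In Lyve1 Cd163 macrophages they were 0.79 and 0.69 for Ctsd, 0.39 and 0.40 for Ctsb, 0.47 and 0.57 for Ctsl and 0.07 and 0.27 for Lgmn, all 4 smaller there than over all resident macrophages. The class II-low macrophages of hashed sample 1 numbered 11 in the Ccl3 Ccl4 state and 6 in the Cxcl9 Cxcl10 state, where the values rest on few molecules.

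**Figure D3:**
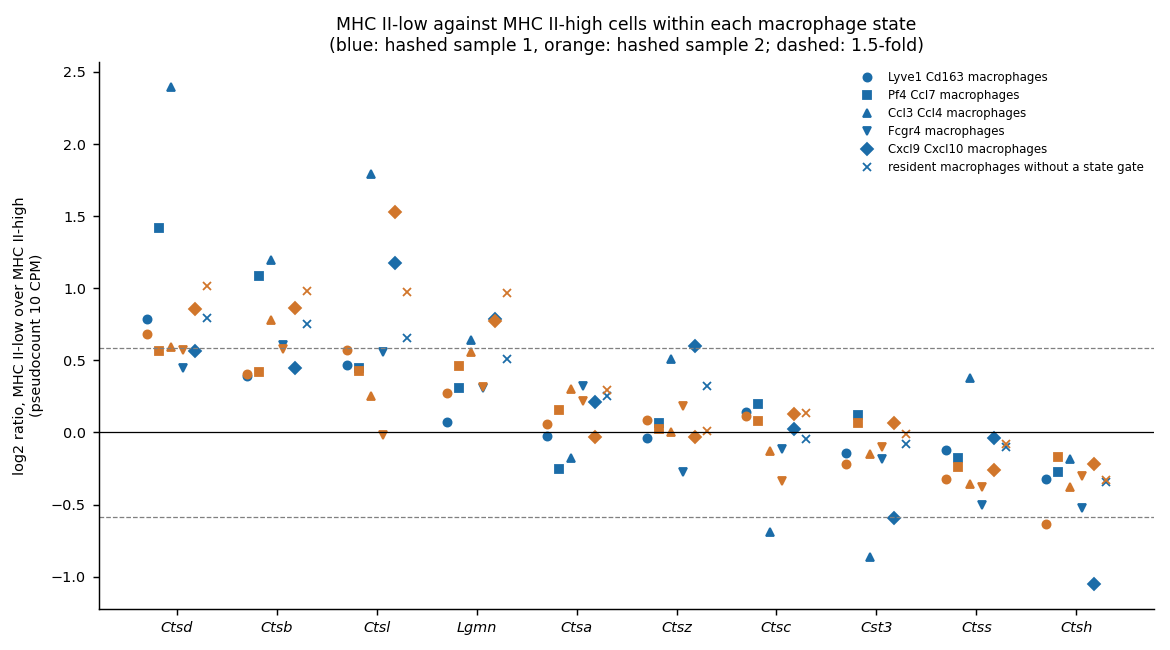
Log2 ratio of each member's CPM in MHC II-low over class II-high macrophages within each macrophage state, 1 point per hashed sample. Ctsd lies between 0.45 and 2.40 and Ctsb between 0.39 and 1.20 across the 6 states, whereas Ctsh lies between -1.05 and -0.17.

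Lysosome genes around the members were mostly not counted in this comparison, whereas most of the measured partners in MHC class II processing were. Among 15 measured lysosome membrane and hydrolase genes only Cd63, a tetraspanin of lysosome membranes, was counted, with 892 and 866 CPM in class II-low macrophages, against 405 and 452 CPM in class II-high macrophages. Of 4 measured relatives of the cathepsins 1 was higher and 1 lower, of 2 measured inhibitors 1 was higher, of 4 measured genes of sorting to lysosomes 1 was higher, and of 2 measured lysosome gene regulators 1 was lower. Tpp1, another lysosomal peptidase, had 125 and 127 CPM in class II-low macrophages, against 71.7 and 68.3 CPM in class II-high macrophages. Grn, the progranulin precursor of lysosomal granulins, had 1097 and 894 CPM in class II-low macrophages, against 656 and 572 CPM in class II-high macrophages. Both were counted as higher, as was Serpinb6a, a serine protease inhibitor of the cytosol, with log2 ratios of 1.35 and 1.19. Napsa, an aspartic protease related to cathepsin D, went the other way with 29.6 and 17.3 CPM in class II-low macrophages, against 136 and 128 CPM in class II-high macrophages. Bhlhe40, a repressor grouped with the lysosome gene regulators, had 10.1 and 7.70 CPM in class II-low macrophages, against 52.8 and 64.3 CPM in class II-high macrophages. Of 6 measured MHC class II processing partners 4 were lower, namely Cd74 (the invariant chain), H2-DMa, H2-DMb1 and Ciita. Ciita is known to switch on the genes used for the split together with the other 3, so this count is no separate result. The 12 dissociation stress genes summed to 1964 and 2037 CPM in class II-low macrophages, against 3553 and 3927 CPM in class II-high macrophages, and 8 of the 12 were counted as lower. The 6 Lyve1 Cd163 state markers were all higher in class II-low macrophages, with a sum of 2537 and 1347 CPM, against 480.5 and 333 CPM in class II-high macrophages. Cycling markers were higher for 3 of 4, with sums of 257 and 625 CPM in class II-low macrophages and 129.7 and 278 CPM in class II-high macrophages. The part of stress, state and cycling in the members' difference was not tested, beyond the values within states above.

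Each gated state, and likewise the Arg1 Mmp12 Lpl and the Ear2 Mgl2 myeloid cells, was compared with all the others of these pooled. By the rule 12 of 70 pairs of a member and a state were counted, 4 as higher and 8 as lower. Lyve1 Cd163 macrophages, a type known from vessel-associated tissue macrophages, held 2 of the 4 higher ones, at a background of 9.52% higher and 6.9% lower. Ctsb had 3034 and 3435 CPM in Lyve1 Cd163 macrophages, against 1227 and 1372 CPM in the others. Lgmn had 1893 and 1891 CPM in Lyve1 Cd163 macrophages, against 721 and 689 CPM in the others. These are log2 ratios of 1.30 and 1.32 for Ctsb and 1.38 and 1.44 for Lgmn, with no overlap between the classes. Lamp1, Cd63 and Npc1, which are among the lysosome membrane and hydrolase genes, were also higher in that state. Of 12 dissociation stress genes 9 were lower there, with a sum of 1439.7 and 1549.9 CPM in Lyve1 Cd163 macrophages, and their part was not tested.

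Pf4 Ccl7 macrophages, marked by chemokine genes, had 1423 and 1363 CPM of Lgmn, against 852 and 739.8 CPM in the others (log2 0.73 and 0.87), at a background of 2.57% higher and 4.32% lower. The level was not particular to this state. Fcgr4 macrophages overlapped it at 1448 and 1218 CPM, and Lyve1 Cd163 macrophages were higher. The pooled others include Arg1 Mmp12 Lpl cells (412 and 312 CPM) and Ear2 Mgl2 cells (108 and 101 CPM). The Pf4 Ccl7 call was lost in cells thinned to 1000 UMIs (log2 0.54 and 0.57). It reversed in sign with Leiden clusters (-1.46 and -0.52), where the state was a cluster of 14 cells. In Cxcl9 Cxcl10 macrophages, which carry interferon-induced genes, Ctsd was lower, with 398 and 465 CPM, against 874 and 706 CPM in the others, at 2.61% higher and 2.17% lower. That call was lost with gates 2 times as high (log2 -1.24 and -0.42), with up to 20% mitochondrial UMIs (-0.98 and -0.58) and in thinned cells (-0.78 and -0.36). No member was counted in Ccl3 Ccl4 macrophages (background 1.4% higher and 1.52% lower) or in Fcgr4 macrophages (2.49% and 5.58%). In Ccl3 Ccl4 macrophages 9 of 12 dissociation stress genes were higher.

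Of the myeloid classes with less C1q, only the Ear2 Mgl2 cells had more members counted by the rule than the resident macrophage states. Arg1 Mmp12 Lpl myeloid cells had 412 and 312 CPM of Lgmn, against 1061 and 1038 CPM in the other gated states, the 1 member counted there (background 5.62% higher and 7.24% lower). Their Ctsd and Ctsz were high without passing the rule in both hashed samples. Ctsd had 1295 and 882 CPM in Arg1 Mmp12 Lpl cells, against 604 and 607 CPM in the others, and Ctsz 1719 and 1173 CPM, against 860.2 and 839.8 CPM. Ctsd was counted as higher with TMM factors (log2 1.13 and 0.59), gates 2 times as high (1.21 and 0.87) and Leiden clusters (1.15 and 0.67). The Leiden class of that name held 699 cells, of which 239 were also gated Arg1 Mmp12 Lpl cells. With gates 2 times as high Ctsz (1.05 and 0.63) and Ctsl (0.90 and 0.62) were also counted as higher. Cst3 was counted as lower with those gates (-0.90 and -0.82) and with Leiden clusters (-1.08 and -0.68). Cstb, the cytosolic relative of cystatin C, had 970.4 and 598 CPM in those cells, against 288 and 303 CPM in the others, and was counted as higher. Ear2 Mgl2 myeloid cells held the remaining 7 counted pairs, at a background of 5.68% higher and 10.3% lower. Cst3 had 6274 and 5911 CPM in Ear2 Mgl2 cells, against 2988 and 3075 CPM in the others, and was higher. Ctsa, Ctsb, Ctsc, Ctsd, Ctsl and Lgmn were lower, the last with 108 and 101 CPM in Ear2 Mgl2 cells, against 1013 and 961 CPM in the others. With Leiden clusters Ctsa (log2 -0.58 and -0.80) and Ctsc (-0.42 and -0.54) lost their calls there. By clusters the Ear2 Mgl2 class held 1126 cells, 231 of them shared with the gate. Ctss, Ctsh and Ctsz were not counted, with Ctss at 2352 and 2081 CPM in Ear2 Mgl2 cells, against 3312 and 2473 CPM in the others. Type 2 dendritic cell markers summed to 3296 and 3362 CPM in the Ear2 Mgl2 cells, against 4819 and 4822 CPM in the type 2 dendritic cells, and their part in these values was not tested.

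Resident macrophages had more Lgmn, Ctsb, Ctsd and Ctsa than classical monocytes, the blood-derived cells that enter injured tissue. The rule counted these 4 of the 10 members as higher and 0 as lower, against 7.23% higher and 6.76% lower among 2765 measured genes, and the members' median log2 ratio was 0.67 and 0.50, against -0.09 and -0.03 over all. Lgmn had 1196 and 1118 CPM in resident macrophages, against 329 and 330.3 CPM in classical monocytes. Ctsb had 1588 and 1876 CPM in resident macrophages, against 634 and 696 CPM in classical monocytes. These were the largest ratios, 1.83 and 1.73 for Lgmn and 1.31 and 1.42 for Ctsb on the log2 scale. Ctsd had 685 and 665 CPM in resident macrophages, against 406 and 340.3 CPM in classical monocytes, and Ctsa 340.5 and 365 CPM, against 183 and 217 CPM. The Ctsd call was lost in thinned cells (log2 0.41 and 0.80). Ctss was above in both hashed samples, with log2 ratios of 0.89 and 0.48, but passed the rule in the first alone. Cst3 had 3228 and 3329.6 CPM in resident macrophages, against 3629 and 3104 CPM in classical monocytes, so that the hashed samples disagreed in sign. Of 14 measured lysosome membrane and hydrolase genes 7 were higher in resident macrophages, led by Cd63 at 489.7 and 607 CPM, against 60.2 and 87.6 CPM in classical monocytes. Dissociation stress genes summed to 3276 and 3219.6 CPM in resident macrophages, against 6206 and 7440.4 CPM in classical monocytes, with 9 of 12 lower. Their part, and that of the Apoe and Fcgr4 RNA in the monocyte class, was not tested.

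Patrolling monocytes, which scan the vessel wall, had less Ctsc, Ctsh, Ctsl and Lgmn than classical monocytes. The rule counted 0 of the 10 members as higher and these 4 as lower, against 13.5% higher and 7.17% lower among 2875 measured genes. Ctsc had 258 and 352 CPM in patrolling monocytes, against 759 and 822 CPM in classical monocytes. Ctsh had 258 and 327 CPM in patrolling monocytes, against 696 and 665 CPM in classical monocytes, and Ctsl 115 and 70.5 CPM, against 284 and 249 CPM. In each of the 4 the classes did not overlap, and the smallest ratios were those of Lgmn, -0.75 and -0.66 on the log2 scale, a call lost in thinned cells (-0.28 and -1.04). Ctsd had log2 ratios of -0.44 and -1.56 and was not counted, but was lower by the rule with TMM factors (-0.65 and -1.71). Ctsb lay the other way without being counted, with 1033 and 1012 CPM in patrolling monocytes, against 634 and 696 CPM in classical monocytes. It was counted as higher with gates 2 times as high (log2 1.23 and 0.68) and in thinned cells (0.85 and 0.73). Cst3 had 3825 and 4740.3 CPM in patrolling monocytes, against 3629 and 3104 CPM in classical monocytes, and was counted as higher with gates 2 times as high (0.90 and 0.91). Napsa was higher, with 975 and 653 CPM in patrolling monocytes, against 404 and 382 CPM in classical monocytes. The comparison rests on 29 and 44 patrolling cells and was the least reliable of the 8 in simulated data, where the rule recovered 61.5% of 2-fold changes and counted 54 of 2476 unchanged genes. The split of all genes was 234 higher and 306 lower with TMM factors, against 388 and 206 without.

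In dendritic cells, which carry antigen to T cells, the inhibitor was high and most of the proteases were low. Cst3 had 26508 and 29714 CPM in type 1, 23420.1 and 20334 CPM in migratory and 8727 and 8337 CPM in type 2 dendritic cells, against 3228 and 3329.6 CPM in resident macrophages. In type 1 dendritic cells this was 8.21-fold (95% interval 8.02 to 8.41) and 8.92-fold (95% interval 8.78 to 9.07) higher. The number of Cst3 molecules per molecule of the 6 cysteine cathepsins was 15.0 and 23.1 in type 1, 6.51 and 6.16 in migratory and 2.26 and 2.08 in type 2 dendritic cells, against 0.418 and 0.457 in resident macrophages. These are ratios of RNA molecules, and no protein or activity was measured.

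In type 1 dendritic cells, known for presenting ingested antigen on MHC class I, all 10 members were counted, Cst3 as higher and 9 as lower. The background was 10.9% higher and 20.1% lower among 2809 measured genes, and the members' median log2 ratio was -2.60 and -3.25, against -0.13 and -0.17 over all. Ctsd had 14.1 and 18.4 CPM in type 1 dendritic cells, against 685 and 665 CPM in resident macrophages, and rests on 5 and 13 UMIs there. Lgmn had 39.5 and 36.7 CPM in type 1 dendritic cells, against 1196 and 1118 CPM in resident macrophages. Both genes were lower by over 4 on the log2 scale, at -4.85 and -4.57 for Ctsd and -4.61 and -4.59 for Lgmn. Ctss, at 839 and 497 CPM in type 1 dendritic cells, against 3309 and 2499 CPM in resident macrophages, remained their most abundant protease of the 9. Macrophage markers, which include the gated C1q genes, summed to 328 and 325 CPM in these cells, against 19290.4 and 19224 CPM in resident macrophages. The part of carried-over macrophage RNA in the small Ctsd and Lgmn values was not tested.

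Migratory dendritic cells, which carry Ccr7 and Fscn1, had 1 member higher and 7 lower, against 15.6% higher and 24% lower among 2889 measured genes. Ctsh and Ctsz were not counted. Ctsh had 857 and 729 CPM in migratory dendritic cells, against 767 and 677 CPM in resident macrophages, and Ctsz 1069.6 and 955 CPM, against 877 and 865 CPM. Ctss had 1271 and 1245 CPM in migratory dendritic cells, against 3309 and 2499 CPM in resident macrophages, and was lower. A pair of serine protease inhibitors were higher in these cells, Serpinb9, which blocks granzyme B, with 151 and 229 CPM, against 4.79 and 2.96 CPM in resident macrophages, and Serpina3g with 92.9 and 128 CPM, against 28.2 and 9.89 CPM. Ifi30, a lysosomal thiol reductase of antigen processing, had 1752 and 1782 CPM in migratory dendritic cells, against 827 and 847 CPM in resident macrophages. With TMM factors the split of all genes was 571 higher and 571 lower, against 451 and 694 without.

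Type 2 dendritic cells, which present antigen on MHC class II, had Cst3 higher and 6 members lower, against 9.79% higher and 12.6% lower among 2759 measured genes. Lgmn had 91.0 and 78.6 CPM in type 2 dendritic cells, against 1196 and 1118 CPM in resident macrophages, and Ctsb 269 and 317 CPM, against 1588 and 1876 CPM. Ctsd, Ctsl, Ctsc and Ctsa were the other members counted as lower. Ctss, Ctsh and Ctsz were not counted. Ctss had 2183 and 2020.2 CPM in type 2 dendritic cells, against 3309 and 2499 CPM in resident macrophages, and Ctsh 591 and 613 CPM, against 767 and 677 CPM. Ctsb and Lgmn thus differed by over 2 on the log2 scale in this class while Ctsh differed by -0.37 and -0.14. In all 3 dendritic cell classes Napsa was higher than in resident macrophages, with 585 and 551 CPM in type 1, 480.4 and 375 CPM in migratory and 908 and 844 CPM in type 2 dendritic cells, against 117 and 86.6 CPM. Of 14 measured lysosome membrane and hydrolase genes, 10 were lower in type 1, 11 in migratory and 10 in type 2 dendritic cells. Stress genes moved unevenly, with 6 of 12 lower in type 1, 4 lower and 1 higher in migratory and 5 higher in type 2 dendritic cells.

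**Figure D4:**
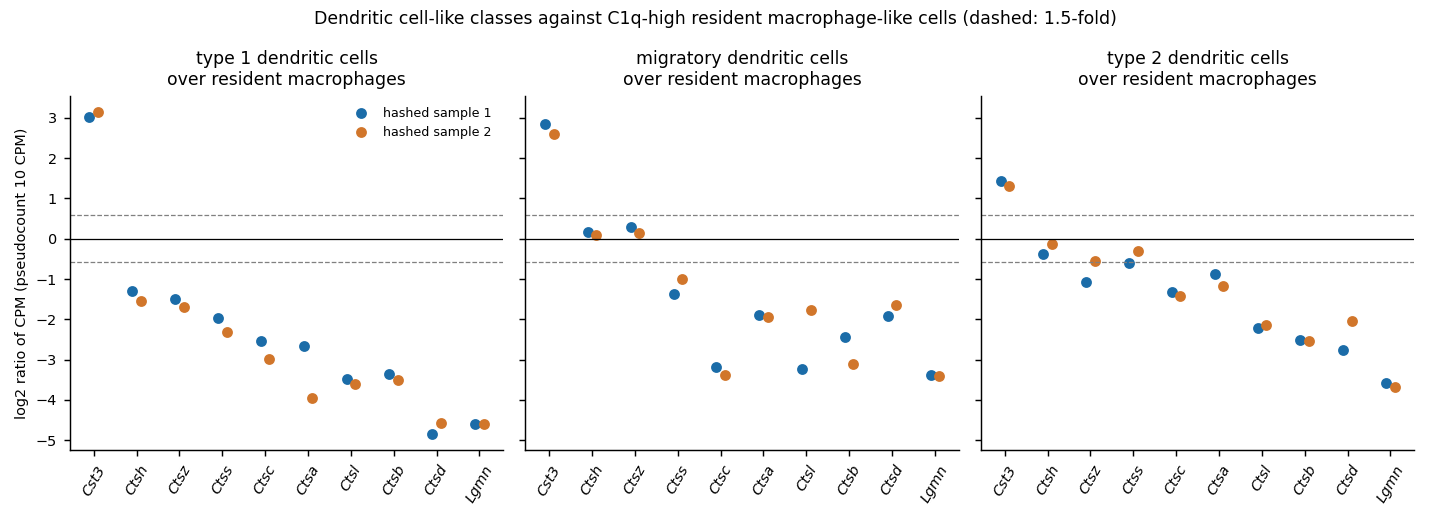
Log2 ratio of each member's CPM in type 1, migratory and type 2 dendritic cells over resident macrophages, 1 point per hashed sample. Cst3 is the 1 member above 0 in all 3 classes, and Ctsd (-4.85 to -1.63 across them) and Lgmn lie far below it.

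CD4 T cells had less of every member than resident macrophages, and Ctsd was the least reduced. All 10 were counted as lower, against 24.1% higher and 21.1% lower among 3254 measured genes. Ctsd had 225 and 214 CPM in CD4 T cells, against 685 and 665 CPM in resident macrophages (log2 -1.56 and -1.59). Lgmn had 18.5 and 33.6 CPM in CD4 T cells, against 1196 and 1118 CPM in resident macrophages (log2 -5.41 and -4.69). The list gene Ctsw, a cathepsin of cytotoxic lymphocytes, was the 1 relative that was higher, with 216 and 235 CPM in CD4 T cells, against 1.39 and 0.856 CPM in resident macrophages. The split of all genes was 530 higher and 769 lower with TMM factors, against 783 and 685 without.

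Free RNA in the droplets can add to such values. C1qa, C1qb and C1qc together, which T cells lack, stood in CD4 T cells at 1.44% and 2.00% of their level in resident macrophages. Ctsd stood at 32.8% and 32.1% of its macrophage level in CD4 T cells and at 43.6% and 49.1% in CD8 T cells, many times the C1q share. Lgmn, at 1.54% and 3.01% in CD4 T cells, Ctsh, at 3.23% and 3.48%, and Ctsl, at 2.07% and 5.80%, had the lowest shares in hashed sample 1. The macrophage lysozyme gene Lyz2 stood at 2.19% and 2.61%. The part of free RNA in these members was not tested. The remaining 6 lay between 4.57% (Ctsc) and 12.2% (Ctsb) in CD4 T cells. The droplets with tubule transcripts had 532 and 673 CPM of Ctsd, and proximal tubule markers in CD4 T cells stood at 1.11% and 1.84% of their level there. After each cell was thinned to 1000 UMIs, a Ctsd UMI was found in 20.9% and 24.4% of CD4 T cells and a Ctsh UMI in 1.35% and 4.20% of the same cells, while in resident macrophages Ctsd was in 37.9% and 40.4% and Ctsh in 50.4% and 47.2%. C1qa, the gene T cells should lack, was in 14.8% and 14.3% of the thinned CD4 T cells, and unthinned the Ctsd share was 63.6% and 63.3% in CD4 T cells and 82.9% and 82.9% in resident macrophages. Median depth was 5081 and 3696 UMIs in CD4 T cells and 6284 and 6773 in resident macrophages.

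CD8 T cells, compared with CD4 T cells, had 0 of 6 measured members counted, against 1.72% higher and 3.08% lower among 2788 measured genes, and Ctsa, Ctsh, Ctsl and Lgmn were under the minimum level. Ctsc, which activates granzymes in cytotoxic cells, had 82.1 and 94.5 CPM in CD8 T cells, against 52.4 and 52.1 CPM in CD4 T cells, with log2 ratios of 0.56 and 0.75, the first just short of the rule. Ctsd had 298 and 326 CPM in CD8 T cells, against 225 and 214 CPM in CD4 T cells. For both genes the 2 CD8 values lay above the 2 CD4 values. Ctsw, with 410.3 and 459 CPM in CD8 T cells, against 216 and 235 CPM in CD4 T cells, and Cst7, a cystatin of cytotoxic cells that inhibits cathepsin C, with 61.8 and 101 CPM, against 36.4 and 33.6 CPM, were counted as higher. With TMM factors the split of all genes was 61 higher and 68 lower, against 48 and 86 without.

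**Figure D5:**
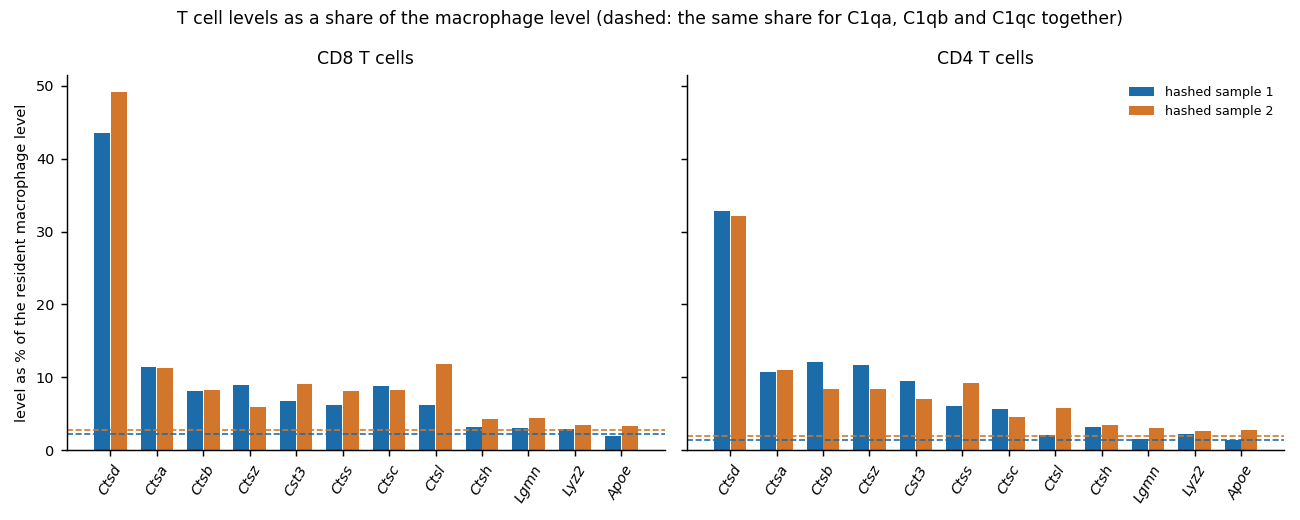
Level of each member in CD8 and CD4 T cells as a percentage of its level in resident macrophages (axis from 0), 1 bar per hashed sample, with Lyz2 and Apoe beside them and the share of C1qa, C1qb and C1qc as dashed lines. The gates on C1q limit the share that these lines show. Ctsd stands at 32.1% to 49.1%, the highest of the 10, and Ctsh stands at 3.23% and 3.48% in CD4 T cells.

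The members' levels across classes differed in how far they ran together from pair to pair. Over 32 points, 16 classes and states in each of the 2 hashed samples of 1 library, Pearson's r of log2 CPM was 0.961 for Ctsb and Lgmn, 0.948 for Ctsh and Ctss and 0.946 for Ctsh and Ctsz. For Ctsd it was 0.765 with Ctsl, 0.736 with Ctsb, 0.731 with Lgmn, 0.260 with Ctsh and -0.325 with Cst3. Cst3 and Ctsh were at 0.786. The points share a library and the states share a gate, so these are descriptions.

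The genes most like each member were sought by the same measure among 4215 other genes of at least 50 CPM in a class in each hashed sample. Left out beforehand were all cell type and state marker genes, so that none of these could be named as nearest. Mitochondrial, ribosomal, immunoglobulin and T cell receptor genes and unnamed gene models were also left out. Rin2 was nearest to both Ctsb (r 0.959) and Lgmn (0.968), followed for Ctsb by Slc7a8 and the fractalkine receptor gene Cx3cr1 and for Lgmn by the scavenger receptor gene Stab1 and the lipid exporter gene Abca1. Lyz2, the macrophage lysozyme, was nearest to Ctsl (0.954), and Cmklr1 was among its nearest 3. App was nearest to Ctss (0.975), Pirb to Ctsh (0.966), Fcgr3 to Ctsc (0.977), Clec4a2 to Ctsa (0.961) and S100a1 to Ctsz (0.967). Ncf1, a subunit of the phagocyte oxidase, was among the nearest 3 of Ctsh, Ctss and Ctsz. The nearest genes to Ctsd were less like it, with Pld3, a lysosomal exonuclease, at 0.872, Cd84 at 0.856 and Nceh1 at 0.856. For Cst3 they were Pkib (0.951), Spop (0.917) and Nav1 (0.916).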

How the data were processed

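Single cells sorted for CD45 from kidney were profiled with the 3' Chromium chemistry. The deposited values are raw UMI counts per gene and cell, which Cell Ranger 6.1.1 wrote per the file headers. Per the submitters' processing notes the build was mm10 and the tools were Seurat 4.3.0 and Cell Ranger 6.0. Deposited totals were 20743037 and 25314154 UMIs.

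Barcodes under 200 genes, under 500 UMIs or over 10% mitochondrial UMIs were left out, 414 in all. Scrublet, run on both hashed samples together, removed 44 cells (0.667%), and 5 were removed for a leading hashtag below 10 counts or below 2 times the second. Classes were gated on UMIs per 10000 of marker genes. State gates used the 85th percentile of the state's markers over the resident macrophages. T cells with a Cd4 UMI and no Cd8a or Cd8b1 UMI were called CD4, and those with at least 2 Cd8a or Cd8b1 UMIs and no Cd4 UMI were called CD8. UMIs were summed per class and hashed sample and expressed as CPM of the class total. Intervals are exact Poisson, Clopper-Pearson or conditional binomial, at 95%.

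The rule of size was tested on simulated data: it recovered 97.5% of 2-fold changes and counted 0 of 2338 unchanged genes for MHC II-low against MHC II-high cells. The simulated counts held counting error only, with the same fold in both hashed samples. They therefore do not show how the rule fares with spread between cells or hashed samples. The members, lists and comparisons were chosen with earlier results of these data known. The named genes are all members, for each member the 3 genes most like it, and up to 6 counted list genes a comparison by size of their mean log2 ratio. List genes named beyond these were chosen after their values were seen, and a few genes that the rule names are not reported here. The lists hold other cathepsins and relatives, cystatins and other inhibitors, sorting to lysosomes, MHC class II processing partners, lysosome membrane and hydrolases, lysosome gene regulators and dissociation stress genes. Alternatives were TMM factors (edgeR 4.0.16 in R 4.3.3), a pseudocount of 1 CPM, no minimum CPM, gates 2 times as high, 20% mitochondrial UMIs, no doublet removal, cells thinned to 1000 UMIs, Leiden clusters in place of gates (leidenalg 0.10.2, scanpy 1.11.5), and, for the MHC class II split, the lowest against the highest tertile and each state alone. Other tools were matplotlib 3.10.9, scipy 1.17.1, numpy 2.4.6, anndata 0.12.19 and Python 3.11.15.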

Additional observations from a re-analysis of the deposited data

How the results depend on the processing

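Of 461 calls recomputed over the 8 common alternatives, 449 kept their direction and stayed past the rule. With a pseudocount of 1 CPM or no minimum CPM no call could be lost, because both only loosen the rule. Their rows are among the 449 by construction. The 12 losses were Lgmn in MHC II-low cells under TMM factors, gates 2 times as high and Leiden clusters, Ctsd in resident macrophages against monocytes, Lgmn in patrolling monocytes and Lgmn in Pf4 Ccl7 macrophages in thinned cells, Ctsd in Cxcl9 Cxcl10 macrophages under gates 2 times as high, 20% mitochondrial UMIs and thinned cells, and, under Leiden clusters, Ctsa and Ctsc in Ear2 Mgl2 cells and Lgmn in Pf4 Ccl7 macrophages. The last reversed, with a mean log2 ratio of -0.99 (-1.46 and -0.52), where the state was a cluster of 14 cells. In place of 4 members, the MHC class II comparison counted 1 within Lyve1 Cd163, 0 within Pf4 Ccl7, 2 within Ccl3 Ccl4, 0 within Fcgr4 and 2 within Cxcl9 Cxcl10 macrophages, with fewer cells in each. In place of 0, CD8 against CD4 T cells counted 1 with a pseudocount of 1 CPM, no minimum CPM, gates 2 times as high or no doublet removal. In place of 12, the macrophage states counted 19 with gates 2 times as high. The cause of these shifts was not tested. Leiden clusters gave no patrolling monocyte, type 2 dendritic cell or Fcgr4 class, so that no value exists for them. Cluster classes of the other names held partly other cells than the gates. Resident macrophages numbered 2469 by cluster and 3005 by gate, with 2261 in both. For Arg1 Mmp12 Lpl cells these numbers were 699, 484 and 239, for Ear2 Mgl2 cells 1126, 291 and 231, and for Lyve1 Cd163 macrophages 961, 349 and 287. TMM factors moved the median log2 ratio of all genes from 0.13 to -0.00 for MHC II-low against MHC II-high, from 0.04 to -0.17 for patrolling against classical monocytes, from -0.09 to 0.02 for type 2 and from -0.20 to -0.02 for migratory dendritic cells, and from 0.25 to 0.06 for CD4 T cells. No paired analysis was possible because the single-cell data are 1 labelled sample and no test was run. Depth limits the values that rest on few UMIs, such as Ctsd (5 and 13), Ctsl (5 and 7) and Ctsa (16 and 10) in type 1 dendritic cells and Ctsl in patrolling monocytes (12 and 11) and CD4 T cells (11 and 8).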
